A study of Mus musculus with 6 samples.

Results

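Expression of 9 genes of vitamin A uptake and retinoid metabolism was measured in crypts of the mouse ileum, and the genes were chosen by name from the 55446 genes of the authors' deposited table: Rbp2, Rdh7, Lrat, Bco1, Isx, Scarb1, Adh1, Aldh1a1 and Dhrs3. All 9 were found, none had the status for excess data, and all 9 were among the 15762 genes that the authors tested. The labels describe 3 libraries from Adar iΔgut mice, which carry floxed Adar alleles and the VilCreERt2 transgene, and 3 libraries from Adar fl/fl mice, which carry the floxed alleles alone. VilCreERt2 is a Cre recombinase made under the promoter of villin, an epithelial gene, and activated by tamoxifen, so the deletion is aimed at epithelial cells and not at the stromal and immune cells that an ileal crypt preparation also holds. Mice of both genotypes were given tamoxifen, and the time was day 3.

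The authors' deposited table gives 1 pooled FPKM for a condition named TMX and 1 for a condition named con, with no value per library. FPKM counts fragments per length of transcript and per fixed number of fragments, so levels of different genes can be compared. By elimination, since both genotypes received tamoxifen, TMX was taken to be Adar iΔgut and con to be Adar fl/fl, but Adar, the floxed gene, was at 52.0 FPKM in the condition labelled TMX and 19.5 FPKM in con (q = 0.0575 in the authors' deposited table). That direction goes against the reading, which exons were floxed is not stated in the labels, and directions below are those of the condition labelled TMX. No spread between mice can be given. A difference was called where the authors' q-value, a p-value adjusted over all tested genes, was under 0.05. Depth per library is unknown.

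Vitamin A reaches the intestine as carotenoids and as retinyl esters. Carotenoids enter through the receptor encoded by Scarb1 and are cleaved to retinal by the enzyme encoded by Bco1, while esters are hydrolysed at the brush border and enter as retinol. Inside the enterocyte, the binding protein encoded by Rbp2 carries retinol and retinal, and the acyltransferase encoded by Lrat turns retinol into retinyl esters that leave in chylomicrons. A smaller flow is oxidised in steps, retinol to retinal and retinal to retinoic acid, and retinoic acid acts on nuclear receptors. In mice the homeobox factor encoded by Isx is induced by retinoic acid and represses Scarb1 and Bco1.

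Of the 9 genes, 4 were lower in TMX, 1 was higher and 4 were not called in the authors' deposited table. Lrat, Adh1, Isx and Rbp2 fell, and Scarb1 rose. Over all tested genes the authors' deposited table called 12.3% in either direction, 5.70% lower and 6.60% higher. The median log2 fold change of the 9 genes was -1.09, and that of all tested genes was 0.05, both on the authors' scale of FPKM plus 1. The size of a log2 fold change on this scale depends on the added value for low genes: adding 0.1 or 10 in place of 1 gave -3.73 or -0.60 for Lrat, 2.57 or 0.19 for Scarb1 and -3.82 or -0.44 for Rdh7. Of the 9 genes, 8 had a log2 fold change below 0 and 1 above, compared with 7334 below and 8428 above among all tested genes. Summed over the 9 genes, the FPKM of TMX was 46.7% of that of con. Most of either sum was Rbp2, with 226 of 283 FPKM in TMX and 499 of 606 FPKM in con.

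**Figure D1:**
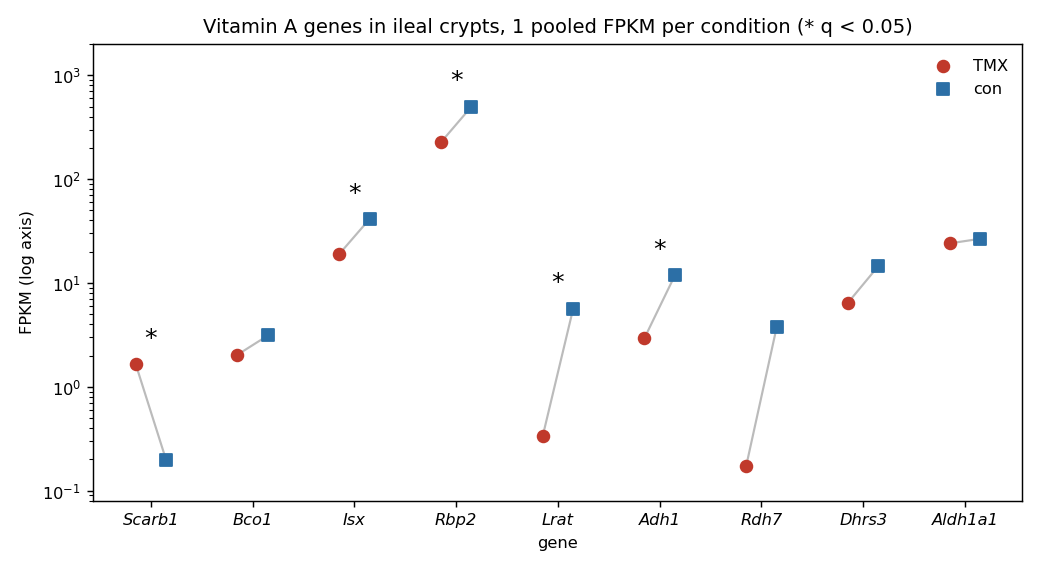
Pooled FPKM (log axis) of each of the 9 vitamin A genes in TMX (circles, left) and con (squares, right), 1 value per condition with no error, in order from uptake to oxidation; stars mark a q-value under 0.05. Scarb1 is the 1 gene whose TMX value lies above its con value, and Lrat and Rdh7 show the widest gaps.

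Scarb1 encodes scavenger receptor class B type 1, which takes up carotenoids and exchanges cholesterol with lipoproteins. In the authors' deposited table Scarb1 (ENSMUSG00000037936.15, GRCm38 chromosome 5, 125277087 to 125341094, minus strand) was at 1.66 FPKM in TMX and 0.197 FPKM in con. Scarb1 was thus 8.44 times as high in TMX, with a log2 fold change of 1.15 at q = 0.00281 in the authors' deposited table. Both levels were low: con ranked Scarb1 as gene 17141 by FPKM and TMX ranked it as gene 12314. Its mean lay under 1 FPKM, so a filter at that level removes the gene and leaves no call higher among the 9.

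Bco1 encodes the oxygenase that splits beta-carotene symmetrically. The authors' deposited table listed Bco1 (ENSMUSG00000031845.15, chromosome 8, 117095854 to 117133720, plus strand) at 2.04 FPKM in TMX and 3.12 FPKM in con, with a log2 fold change of -0.44 at q = 0.507, which was not called. Its mitochondrial relative Bco2, which cleaves carotenoids asymmetrically, was at 3.77 FPKM in TMX and 13.0 FPKM in con at q = 0.522 in the authors' deposited table. Isx (ENSMUSG00000031621.9, chromosome 8, 74873173 to 74893506, plus strand), the homeobox gene that represses both uptake and cleavage in mice, fell to 19.0 FPKM in TMX, against 41.4 FPKM in con, in the authors' deposited table. That is 45.8% of the con value, with a log2 fold change of -1.09 at q = 0.00355 in the authors' deposited table. Of the pair of genes that Isx is known to repress, Scarb1 was called higher and Bco1 was not called. The difference between the pair was not tested, nor was the part of Isx in either value.

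Rbp2, or cellular retinol-binding protein 2, was by far the most abundant of the 9. In the authors' deposited table Rbp2 (ENSMUSG00000032454.9, chromosome 9, 98486115 to 98509781, plus strand) fell to 226 FPKM in TMX, against 499 FPKM in con, with a log2 fold change of -1.14 (p = 0.00265, q = 0.0263). It ranked as gene 261 by FPKM in TMX and as gene 155 in con. The TMX level was 45.4% of the con level, close to the 45.8% of Isx. The call of Rbp2 was lost at a stricter q-value threshold of 0.01 and, with an adjusted p of 0.0923, when the genes too low to test were also adjusted over. Those genes were assigned the highest possible p-value, which can only raise an adjusted p. Lrat (ENSMUSG00000028003.6, chromosome 3, 82892579 to 82903973, minus strand), whose enzyme receives retinol from the Rbp2 product, fell to 0.335 FPKM in TMX, against 5.68 FPKM in con, in the authors' deposited table. This was 5.89% of the con value, with a log2 fold change of -2.32 at q = 0.00112, the lowest that the authors' deposited table holds. The log2 fold change of Lrat was lower than that of all but 1.03% of tested genes, and for Rbp2 that share was 5.79%. The authors' locus for Lrat is wider than the annotated gene, running from 82876705 to 83015049, and those of Adh1, to 138307022, and Aldh1a1, from 20324856, are wider too. Adh1 shares 136 exonic bases with the antisense gene Gm16559, which the authors' deposited table lists at 0 in both conditions, and no other of the 9 shares exonic bases with an annotated gene of the table.

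Of the 3 enzymes among the 9 that interconvert retinol and retinal, 1, Adh1, was called lower, and Rdh7 and Dhrs3 were not called. Over all tested genes 5.70% were called lower. The FPKM of all 3 was lower in TMX, where 7334 of 15762 tested genes had a log2 fold change below 0. Adh1 encodes a cytosolic alcohol dehydrogenase that oxidises retinol. In the authors' deposited table Adh1 (ENSMUSG00000074207.10, chromosome 3, 138260991 to 138290698, plus strand) fell to 2.94 FPKM in TMX, against 11.9 FPKM in con, with a log2 fold change of -1.71 at q = 0.00200. Rdh7 encodes a microsomal short-chain dehydrogenase that acts on retinol in mice. The authors' deposited table gave Rdh7 (ENSMUSG00000040134.8, chromosome 10, 127884028 to 127888817, minus strand) 0.173 FPKM in TMX and 3.77 FPKM in con. Its TMX value was 4.60% of its con value, the lowest share of the 9, yet the q-value was 0.542 in the authors' deposited table and the gene was not called. A fold change as wide as that of Lrat thus passed the authors' test for Lrat and missed it for Rdh7, and with no value per library the spread behind each cannot be seen. Rdh7 lies in a cluster with the related genes Rdh1, Rdh9, Rdh16 and Rdh19, and the division of reads that such copies share is not stated in the labels.

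Dhrs3 encodes the reductase that returns retinal to retinol and is induced by retinoic acid. Dhrs3 (ENSMUSG00000066026.14, chromosome 4, 144892827 to 144928209, plus strand) was at 6.45 FPKM in TMX and 14.6 FPKM in con in the authors' deposited table. Its log2 fold change of -1.07 was near those of Isx and Rbp2, but the authors' deposited table gave p = 0.00940 and q = 0.0683, which missed the threshold. Aldh1a1 encodes a retinal dehydrogenase that makes retinoic acid. The authors' deposited table listed Aldh1a1 (ENSMUSG00000053279.8, chromosome 19, 20492715 to 20643465, plus strand) at 24.1 FPKM in TMX and 26.6 FPKM in con, with a log2 fold change of -0.14 at q = 0.931. That small difference changed sign, to 0.067, when both conditions were scaled to the same summed FPKM.

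**Figure D2:**
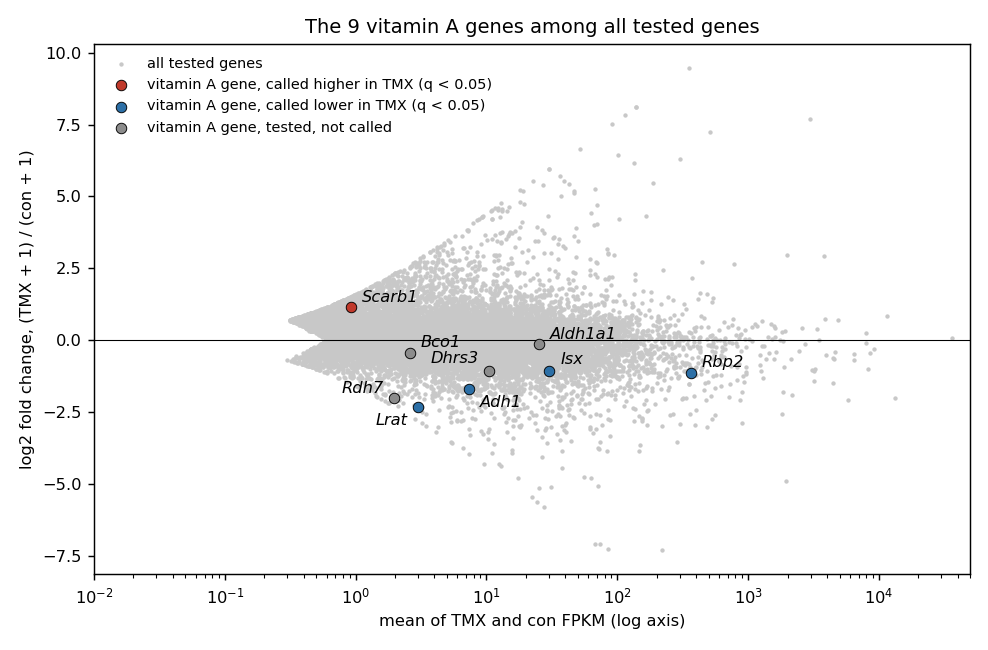
Log2 fold change of FPKM plus 1 (TMX over con) against the mean of both FPKM values (log axis) for all tested genes (grey) and the 9 vitamin A genes (large points, coloured by the authors' call). Rbp2 lies far to the right of the other 8, Scarb1 lies near 1 FPKM at the left, and Lrat, Rdh7 and Adh1 lie lowest.

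The promoters of the 4 genes that fell and that of Bco1, which was not called, are shown. Windows of Rdh7, Aldh1a1 and Dhrs3, also not called, were searched in the same way and are not shown. They come from RefSeq on GRCm38.p6 and run from 250 bases before to 50 bases after a start site, 5′ to 3′ in the direction of the gene. RefSeq held such windows for 8 of the 9 genes. Capitals mark exact matches, on either strand, to the letters searched: AGGTCA, the core that nuclear receptors bind, alone or as direct repeats with 1, 2 or 5 bases between, CAAAGTCCA for HNF4, TTTATG for CDX factors, GTTAAT for HNF1, AGATAA for GATA factors and TATAAA for the TATA box. The windows are chr9:98490287-98490586, plus strand, for Rbp2, chr3:82903925-82904224, minus strand, for Lrat, chr8:74872924-74873223, plus strand, for Isx, chr3:138277335-138277634, plus strand, for Adh1, and chr8:117095615-117095914, plus strand, for Bco1.
Rbp2: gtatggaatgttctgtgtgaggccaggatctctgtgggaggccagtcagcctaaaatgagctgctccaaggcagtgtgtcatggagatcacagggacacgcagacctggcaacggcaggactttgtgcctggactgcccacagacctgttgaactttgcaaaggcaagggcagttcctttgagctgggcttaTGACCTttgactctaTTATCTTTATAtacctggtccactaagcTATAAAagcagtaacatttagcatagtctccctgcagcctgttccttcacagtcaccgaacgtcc
Lrat: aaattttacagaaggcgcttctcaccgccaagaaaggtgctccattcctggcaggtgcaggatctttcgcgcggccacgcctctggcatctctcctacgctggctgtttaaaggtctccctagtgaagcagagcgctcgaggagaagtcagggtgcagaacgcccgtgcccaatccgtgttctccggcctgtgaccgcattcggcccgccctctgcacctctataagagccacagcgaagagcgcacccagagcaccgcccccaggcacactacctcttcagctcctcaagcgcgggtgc
Isx: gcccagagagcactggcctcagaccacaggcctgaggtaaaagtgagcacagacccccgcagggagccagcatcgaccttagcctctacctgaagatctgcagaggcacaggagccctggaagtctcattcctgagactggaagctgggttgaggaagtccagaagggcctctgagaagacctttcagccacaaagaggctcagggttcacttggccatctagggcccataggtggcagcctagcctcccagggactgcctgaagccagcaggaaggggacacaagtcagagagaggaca
Adh1: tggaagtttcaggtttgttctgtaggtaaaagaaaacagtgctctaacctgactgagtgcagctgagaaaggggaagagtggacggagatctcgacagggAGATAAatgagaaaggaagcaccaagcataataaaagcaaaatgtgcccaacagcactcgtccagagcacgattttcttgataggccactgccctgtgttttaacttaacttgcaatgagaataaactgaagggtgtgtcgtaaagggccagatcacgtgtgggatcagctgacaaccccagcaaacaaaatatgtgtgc
Bco1: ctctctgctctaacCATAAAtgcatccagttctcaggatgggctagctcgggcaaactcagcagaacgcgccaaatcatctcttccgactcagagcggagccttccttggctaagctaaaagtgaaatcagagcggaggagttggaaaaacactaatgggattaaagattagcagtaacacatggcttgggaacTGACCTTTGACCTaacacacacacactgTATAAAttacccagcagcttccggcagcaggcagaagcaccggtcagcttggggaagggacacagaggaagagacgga

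Bco1 alone among the windows of these genes held 2 copies of AGGTCA as a direct repeat with 1 base between, read on the opposite strand and starting 56 bases before the start site. Of 32851 promoter windows of the same length, 13 held that repeat, or 0.0396%. Rbp2 held a single AGGTCA, also on the opposite strand, 58 bases before the start site, and 16.3% of all windows held at least 1. Only exact letters were searched, so an imperfect copy beside it would not be marked. The Rbp2 window also held AGATAA and TATAAA, which overlap by 1 base in the capitals TTATCTTTATA, and a further TATAAA 15 bases before the start site. TATAAA stood in 13.6% of all windows and AGATAA in 11.2%. Bco1 also held TATAAA and 1 TTTATG, which stood in 11.9% of windows. Adh1 held 1 AGATAA, and the windows of Lrat and Isx held none of the letters searched. The RefSeq starts of Rbp2 and Adh1 lie inside the annotated genes, far from their first bases. CAAAGTCCA stood in 0.475% and GTTAAT in 7.10% of windows, and neither was found in the 5 shown, nor were the repeats with 2 or 5 bases between, each held by 0.00913% of windows. Of the 4 genes that fell, Rbp2 and Adh1 both held AGATAA. A window of Aldh1a1, which was not called, held it too, 32 bases before the start site. Among the other windows not shown, 1 of Rdh7 held AGGTCA, 105 bases before the start site, and TTTATG, 208 bases before it. Windows of Dhrs3 held GTTAAT.

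Around the 9 genes, a textbook list of 59 further genes of retinoid handling was read in the same way. The authors tested 36 of the 59, and of these the authors' deposited table called 9 lower in TMX and 4 higher and left 23 without a call. Their median log2 fold change was -0.73, and 26 of the 36 lay below 0. The 9 calls lower are 25% of those tested and the 4 calls higher are 11.1%, beside the backgrounds of 5.70% and 6.60%. The list was written with earlier results of these data known, so these shares are a description and not a test.

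Genes listed for ester hydrolysis in the gut lumen and for uptake held 4 of the further calls lower. Plb1, a phospholipase that also splits retinyl esters, was at 0.803 FPKM in TMX and 62.0 FPKM in con, and the authors' deposited table gave its log2 fold change as -5.13. Pnliprp2, a lipase of the pancreatic family, fell to 13.8 FPKM in TMX, against 125 FPKM in con, in the authors' deposited table. Clps, or colipase, fell to 26.6 FPKM in TMX, against 79.7 FPKM in con, at q = 0.0256 in the authors' deposited table. The sterol transporter gene Npc1l1 fell to 8.95 FPKM in TMX, against 72.3 FPKM in con, in the authors' deposited table. Lpl, which frees fatty acids and retinyl esters from lipoproteins at vessel walls, went the other way, with 0.820 FPKM in TMX and 0.122 FPKM in con at q = 0.0392 in the authors' deposited table. The membrane receptors Cd36 and Stra6l were not called. Stra6l, a retinol receptor, was at 2.50 FPKM in TMX and 3.42 FPKM in con and Cd36, which binds fatty acids and carotenoids, was at 8.06 FPKM in TMX and 6.41 FPKM in con, at q = 0.528 and 0.794 in the authors' deposited table.

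Of the genes listed for the esterification of retinol, Lrat and Dgat1 fell. Dgat2 was not called, at 11.9 FPKM in TMX and 10.6 FPKM in con, and Awat2 was not tested, at 0.239 FPKM in TMX and 0.280 FPKM in con, in the authors' deposited table. Dgat1, which can esterify retinol from acyl-CoA in the mouse intestine, fell to 36.1 FPKM in TMX, against 133 FPKM in con, at q = 0.00112 in the authors' deposited table. The Lrat level was 0.919% of the summed Lrat and Dgat1 FPKM in TMX and 4.08% in con. The chylomicron genes Mttp and Apob were not called, at 158 and 101 FPKM in TMX and 320 and 330 FPKM in con, with q-values of 0.226 and 0.273 in the authors' deposited table.

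Among the binding proteins, Rbp7 fell beside Rbp2. Rbp7, a further cellular retinol-binding protein, was at 4.93 FPKM in TMX and 51.1 FPKM in con at q = 0.00112 in the authors' deposited table. Of the summed FPKM of Rbp2 and Rbp7, Rbp2 made up 97.9% in TMX and 90.7% in con, and Rbp7 made up 2.13% in TMX and 9.29% in con. Fabp5, which can carry retinoic acid, was at 7.05 FPKM in TMX and 2.92 FPKM in con at q = 0.101 in the authors' deposited table. Crabp1 was listed at 0 in both conditions and Crabp2 at 0.251 FPKM in TMX and 0 in con, and the authors' deposited table tested neither.

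The list of retinol oxidation and retinal reduction had 14 tested genes, the 3 of the 9 included, with 2 called lower and 2 called higher in the authors' deposited table. That is 14.3% in each direction, beside 5.70% lower and 6.60% higher over all tested genes. Their median log2 fold change was -0.83, with 11 below 0 and 3 above. At an unadjusted p under 0.05, 6 were lower and 2 higher in the authors' deposited table, where 10.7% of all tested genes were lower and 12.1% higher. Beside Adh1, the lower call was Rdh14, a microsomal retinol dehydrogenase, at 7.12 FPKM in TMX and 15.7 FPKM in con at q = 0.0145 in the authors' deposited table. Both calls higher were dehydrogenases that make retinal. Rdh10, the chief retinol dehydrogenase of mouse embryos and the partner of the Dhrs3 product, rose to 11.6 FPKM in TMX, against 5.61 FPKM in con, at q = 0.0256 in the authors' deposited table. Dhrs9 rose to 2.98 FPKM in TMX, against 0.187 FPKM in con, at q = 0.00112 in the authors' deposited table.

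Genes of the Aldh1a family differed in their calls. Aldh1a2, which marks retinoic acid-producing dendritic and stromal cells of the gut, rose to 2.37 FPKM in TMX, against 0.354 FPKM in con, at q = 0.00554 in the authors' deposited table. Aldh1a7, a rodent paralog that lies beside Aldh1a1, fell to 0.811 FPKM in TMX, against 3.74 FPKM in con, at q = 0.00897 in the authors' deposited table. Reads common to Aldh1a1 and Aldh1a7 may have been split between them. The summed FPKM of Aldh1a1, Aldh1a2 and Aldh1a3 was 26.9 in TMX and 27.1 in con, of which Aldh1a1 held 89.3% in TMX and 98.3% in con and Aldh1a2 held 8.78% in TMX and 1.31% in con.

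Of the genes for clearing retinoic acid, 1 was tested and fell. The clearing enzymes Cyp26a1 and Cyp26b1 were at 0.0248 and 0.0371 FPKM in TMX and 0.0647 and 0.117 FPKM in con, and the authors' deposited table tested neither. Cyp2s1, a cytochrome P450 that can act on retinoic acid in humans, fell to 5.47 FPKM in TMX, against 14.1 FPKM in con, at q = 0.00281 in the authors' deposited table. Of 5 tested receptor genes none was called by the authors' test, beside a background of 12.3%, and 5 genes are too few to tell these apart. At an unadjusted p under 0.05 the authors' deposited table held 1 lower and none higher, beside 10.7% and 12.1% of all tested genes. That 1 was Rxra, the common partner of nuclear receptors, at 4.28 FPKM in TMX and 9.51 FPKM in con at q = 0.113 in the authors' deposited table. Rara was at 2.10 FPKM in TMX and 3.05 FPKM in con and Rarg at 1.22 FPKM in TMX and 0.701 FPKM in con, with q-values of 0.500 and 0.756 in the authors' deposited table. Rarb, itself a target of retinoic acid in many tissues, was at 0.153 FPKM in TMX and 0.0284 FPKM in con and was not tested in the authors' deposited table.

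**Figure D3:**
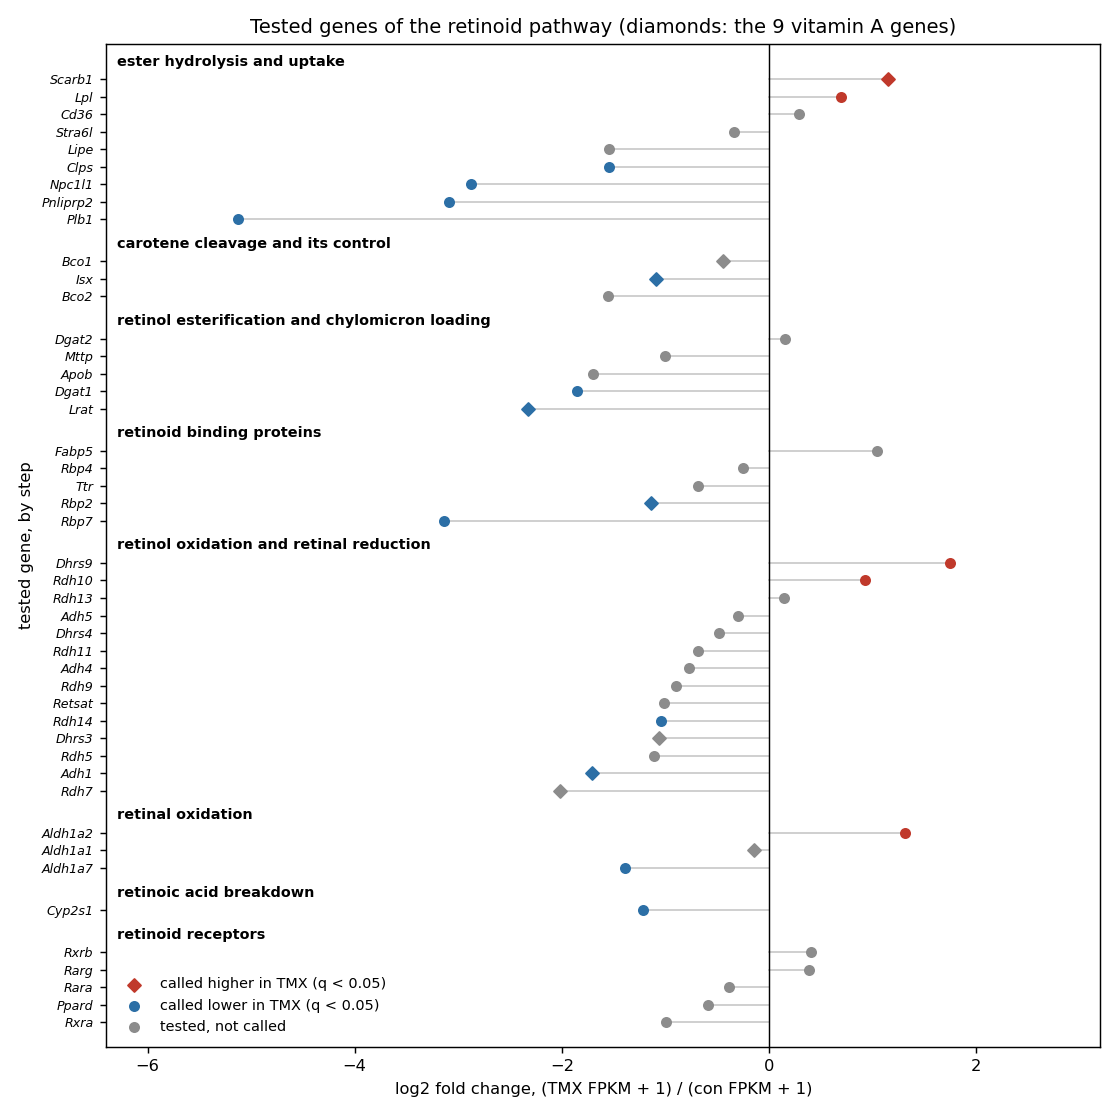
Log2 fold change of FPKM plus 1 (TMX over con) of each tested gene of the retinoid pathway, by step from ester hydrolysis to receptors; diamonds are the 9 vitamin A genes and circles the others, coloured by the authors' call. Plb1 at -5.13 lies lowest and Dhrs9 at 1.75 highest, and no receptor gene is called.

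Transcription factors of the intestinal epithelium, read beside Isx, held 5 calls lower and none higher among 14 tested in the authors' deposited table. At an unadjusted p under 0.05, 7 were lower and none higher. Over all tested genes 5.70% were called lower and 6.60% higher, and 10.7% and 12.1% at that unadjusted p. Hnf4g, a nuclear receptor of enterocytes, fell to 44.0 FPKM in TMX, against 118 FPKM in con, and its partner Hnf4a was at 48.8 FPKM in TMX and 87.7 FPKM in con, with q-values of 0.00112 and 0.0673 in the authors' deposited table. Cdx2, the homeobox factor of intestinal identity, was at 16.2 FPKM in TMX and 26.4 FPKM in con at q = 0.138 in the authors' deposited table. Gata4 was at 6.21 FPKM in TMX and 9.11 FPKM in con with a q-value of 0.655, and its relative Gata5 fell to 7.05 FPKM in TMX, against 15.1 FPKM in con, in the authors' deposited table. The other factors that fell were Klf4, Ppara and Vdr, at 22.6, 0.778 and 7.25 FPKM in TMX and 52.1, 3.82 and 28.4 FPKM in con in the authors' deposited table.

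Markers of cell types were read beside these genes, and the lists differed in direction. Absorptive enterocytes are the cells in which Rbp2 and Lrat are known to act. Of 15 markers of these cells, the authors' deposited table called 6 lower and none higher, beside 5.70% and 6.60% of all tested genes. Their median log2 fold change was -1.93, with 14 below 0, and their summed FPKM was 7272 in TMX and 24351 in con. Their sum in TMX was 29.9% of that in con, and none was listed at 0. The 1 marker above 0 was Fabp1, not called, at 362 FPKM in TMX and 222 FPKM in con. The enterocyte marker Vil1, whose promoter drives the Cre, was at 224 FPKM in TMX and 467 FPKM in con at q = 0.184 in the authors' deposited table. The ratio of Rbp2 to Vil1 was 1.01 in TMX and 1.07 in con, and that of Rbp2 to the enterocyte marker Fabp2 was 0.102 in TMX and 0.0532 in con, comparisons chosen after the values were seen. In bulk RNA, fewer enterocytes and less RNA of a gene in each enterocyte cannot be told apart.

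Most tested stromal and myeloid markers had a log2 fold change above 0, 9 of 10 and 12 of 13. The exceptions were Acta2 at -0.018 and Ptprc at -0.34. Over all tested genes 5.70% were called lower and 6.60% higher, and 10.7% and 12.1% at an unadjusted p under 0.05. The retinoid genes called higher were Scarb1, Aldh1a2, Rdh10, Dhrs9 and Lpl, and which cells made their RNA was not tested. Stromal, muscle and endothelial markers held 5 calls higher and none lower among 10 tested in the authors' deposited table, with a summed FPKM of 168 in TMX and 15.4 in con over 12 genes. Myeloid markers held 7 calls higher and none lower among 13 tested in the authors' deposited table, with a summed FPKM of 418 in TMX and 27.8 in con and 1 marker, Ly6g, listed at 0 in con. Of that sum in TMX, S100a8 and S100a9 held 104 and 72.1 FPKM. Neither was called, with q-values of 0.547 and 0.553 in the authors' deposited table. Of 8 dendritic cell markers 3 were tested and none was called in the authors' deposited table, with 1 higher and none lower at an unadjusted p under 0.05, a summed FPKM of 8.82 in TMX and 4.97 in con, and Xcr1 listed at 0 in TMX. The 6 general epithelial markers summed to 1509 FPKM in TMX and 2252 FPKM in con, with Krt18 called higher and none lower in the authors' deposited table. The part of the cell make-up in the changes of the 9 genes was not tested.

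**Figure D4:**
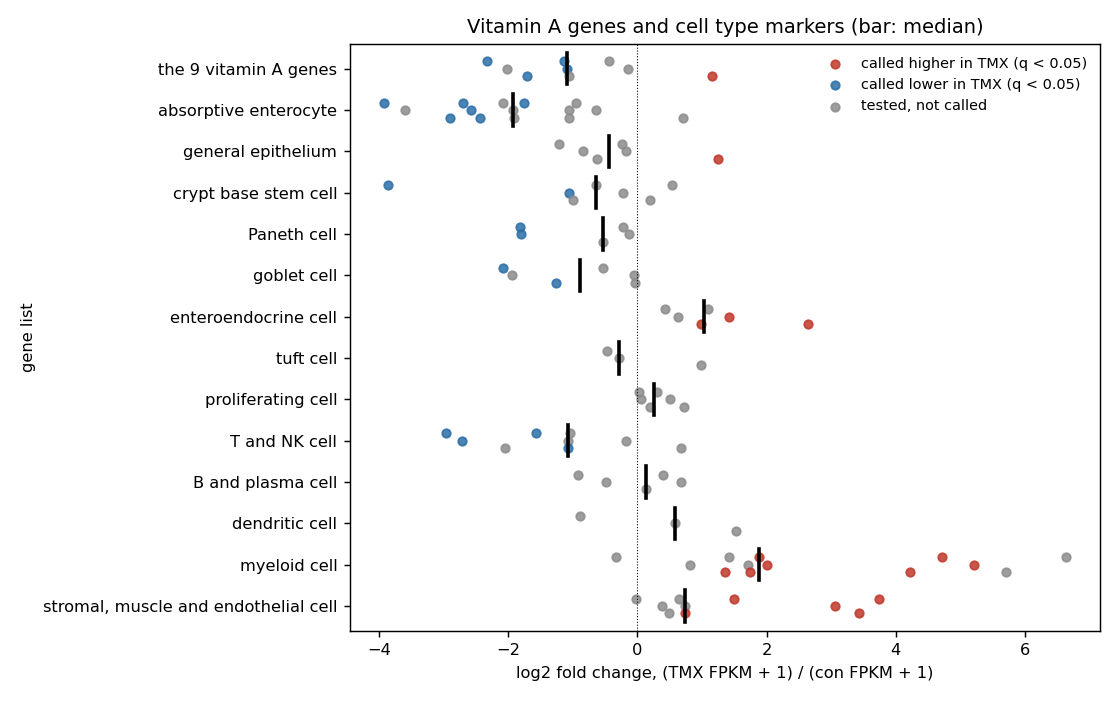
Log2 fold change of FPKM plus 1 (TMX over con) of the 9 vitamin A genes and of the tested markers of each cell type, coloured by the authors' call, with a bar at each list's median. The vitamin A genes have a median of -1.09, that of absorptive enterocyte markers is -1.93, and those of myeloid and of stromal, muscle and endothelial markers are 1.89 and 0.73.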

How the data were processed

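Total RNA of ileal crypts from 6 mouse libraries was sequenced. The tools named in the submitters' processing notes are STAR and Cufflinks, with GRCm38 as the build and without version numbers. Per the file headers, the authors deposited for each gene an FPKM value in con and in TMX, a test statistic (a score), its p-value and q-value, and a log2 fold change. Recomputing showed that the deposited log2 fold change is log2 of TMX plus 1 over con plus 1, and that the q-value follows from Benjamini-Hochberg adjustment across the 15762 tested genes (status OK). The lowest p-value, 5e-05, is shared by 704 genes. The pooling of libraries is not described in the labels.

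No new test was run: the planned reading of the authors' own test was used across all genes. The 60 genes with the status for excess data were left out. All 187 listed symbols matched once, and 1 further gene of the retinoid list is not reported here. The 9 genes and all lists were chosen with earlier results of these data known. The genes named are the 9, the called genes of the retinoid and transcription factor lists, and a few set by name. Others were chosen after their values were seen. Adjustment and motif search were tested on simulated data. Alternatives changed the pseudocount, the scaling, the genes adjusted over and the threshold. Positions come from GENCODE vM21. Scripts ran in Python 3.11.15 with numpy 2.4.6 and pandas 2.3.3, and figures in matplotlib 3.10.9.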

Additional observations from a re-analysis of the deposited data

How the results depend on the processing

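No paired analysis was possible because the deposited table holds no value per library, and for the same reason no library could be left out. Over 8 alternatives, the 9 genes gave 71 values, of which 68 kept their direction and their side of the threshold. Much of that was fixed in advance. Changes of pseudocount and scaling kept the authors' q-values, so no call could change, and a pseudocount cannot turn a sign either. The other alternatives kept the log2 fold change, so no direction could change. Rbp2 lost its call at a q-value threshold of 0.01 and when genes too low to test were adjusted over as well, at an adjusted p of 0.0923. The untested genes were assigned the highest possible p-value, which can only raise an adjusted p. Aldh1a1, not called, turned to 0.067, against -0.14 unscaled, when both conditions were scaled to the same summed FPKM, a scaling that moved the median of all tested genes to 0.25. With a mean of at least 1 FPKM required, Scarb1 was not tested and 0 of the 9 genes were called higher, because the filter removes it; the calls lower stayed at 4. Calls higher over the 9 and the further retinoid genes numbered 5, and 3 with that filter, with no filter on low values, and at a q-value threshold of 0.01. Over all tested genes, with no filter on low values 596 were lower and 691 higher, and at a q-value threshold of 0.01 544 were lower and 614 higher, the cause being the larger number of genes adjusted over and the stricter threshold. The median log2 fold change of the 9 genes lay between -1.14 and -0.58, with the weakest at a pseudocount of 10. That pseudocount gave -0.76 for Adh1, -0.58 for Dhrs3 and -0.12 for Bco1. Depth is unknown, so what it limits cannot be stated.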

Other observations

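Calls among the 59 further retinoid genes differed in direction with level, in a split at a mean of 5 FPKM that was chosen after the values were seen. Of the 23 tested genes at or above that level, 8 were lower in TMX and 1 was higher in the authors' deposited table. Of the 13 tested genes below it, 1 was lower and 3 were higher in the authors' deposited table. Over all tested genes the direction of calls also moved with level: 731 lower and 479 higher of 8585 at or above 5 FPKM, and 168 lower and 562 higher of 7177 below it, in the authors' deposited table.

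Markers of other lineages went in both directions. Over all tested genes 5.70% were called lower and 6.60% higher, and 10.7% and 12.1% at an unadjusted p under 0.05. Enteroendocrine markers held 3 calls higher and none lower among 6 tested in the authors' deposited table, whereas goblet cell and Paneth cell markers each held 2 calls lower and none higher, among 6 and 5 tested. Crypt base stem cell markers held 2 calls lower and none higher among 7 tested, and proliferation markers none of 6, with 1 higher and none lower at an unadjusted p under 0.05, in the authors' deposited table. None of 3 tested tuft cell markers was called in the authors' deposited table, nor at an unadjusted p under 0.05. Of B and plasma cell markers none of 5 tested was called, with 1 higher and none lower at an unadjusted p under 0.05, and T and NK cell markers held 4 calls lower and none higher among 9 tested in the authors' deposited table.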
